A study of Homo sapiens with 6 samples.

Results

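AP-1 is a family of transcription factors that act as dimers of JUN and FOS proteins, and the mRNA levels of its genes, with 2 genes of the same early response, were compared between an APC depleted human colon cell line and its wild type parent. The 10 genes are the JUN genes JUN, JUNB and JUND, the FOS genes FOS, FOSB, FOSL1 and FOSL2, and the stress and growth response genes ATF3, EGR1 and IER2. They were taken by symbol from the count files, which hold all 10 of them, each once, among 24462 different symbols. The list was selected on the levels measured in these same 6 libraries, with the large difference in JUNB already known. Their values in CPM (a count divided by the total of its library and scaled to 1000000) are therefore given for these genes as a description, without a p value.

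AP-1 dimers bind a short DNA element in the control regions of genes for growth, matrix breakdown and cytokines. Several members are immediate early genes, which growth factors, serum and stress switch on within minutes through ERK, JNK and p38 kinases, and whose mRNAs are short lived. JUN homodimers and JUN:FOS dimers are strong activators, while JUNB is the weaker activator of the family and can restrain the action of JUN at some genes. In intestinal epithelium, JUN is also known as a partner of TCF4, an effector of the Wnt pathway, which APC holds in check.

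The libraries came from HCEC 1CT cells with the genotype WT (1CT, 3 libraries) and from HCEC 1CT cells with the genotype APC KD (1CT-A, 3 libraries), a knockdown of the tumor suppressor APC. 1CT is an immortalized line of human colonic epithelial progenitor cells that carries an hTERT transgene, and 1CT-A is its version depleted of wild type APC. Both lines were untreated and grown in the same medium with 20 ng/ml EGF, 1 μg/ml hydrocortisone, 10 μg/ml insulin, 2 μg/ml transferrin, 5 nM sodium selenite and 2% FBS according to the labels, so EGF and serum, both known inducers of several of these genes, were present in all 6 libraries. Each group is 1 cell line, the labels do not say whether the 3 libraries came from separate cultures, and p values therefore measure only the spread between these libraries, which may be technical. The labels also do not say whether the 1CT cells carried a control shRNA. APC depletion and any other difference between the lines therefore cannot be told apart.

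The 1CT libraries held 7788679 to 8452258 counts in total and the 1CT-A libraries 11158108 to 12602988, so that 3 counts, the smallest level taken as visible, corresponded to 0.355 to 0.385 CPM in 1CT against 0.238 to 0.269 CPM in 1CT-A, for counting error only. APC itself was at 46.6 ± 2.75 CPM in 1CT and 31.9 ± 2.21 CPM in 1CT-A (SD, n = 3 each), a log2 fold change of -0.58 (SE 0.09, edgeR adjusted p = 1.8e-04). Of the markers of epithelium, EPCAM had 0 counts in all 6 libraries, CDH1 had at most 4 counts, and KRT18 was at 9.94 to 13.2 CPM in 1CT against 3.23 to 7.02 CPM in 1CT-A, while none of 5 markers of differentiated colon epithelium had over 3 counts. The 6 mesenchymal markers summed to 4273 to 5318 CPM in 1CT against 4144 to 4421 CPM in 1CT-A, led by VIM and the collagen genes COL1A1 and COL1A2, and they moved both ways: COL3A1 was at 31.5 to 66.8 CPM in 1CT against 239.6 to 269 CPM in 1CT-A and TWIST1 at 21.8 to 35.4 CPM against 102 to 119 CPM, while COL1A1 and PDGFRB were lower without overlap. The 5 epithelial markers summed to 13.3 to 17.3 CPM in 1CT against 3.23 to 7.20 CPM in 1CT-A. The 4 immune markers summed to 12.4 to 15.0 CPM in 1CT against 8.97 to 10.4 CPM in 1CT-A, nearly all of it CD68, with PTPRC and CD3E at 0. None of 3 endothelial markers had over 3 counts. The labelled epithelial identity was thus not borne by EPCAM or CDH1 in these libraries, and the part of these marker levels in the AP-1 values was not tested.

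Promoter sequences from the RefSeq table on GRCh38.p14 were matched for 9 of the 10 genes, all but FOSL1. They are the 250 bases before the annotated start. The submitters' processing notes name hg19, so these positions describe the annotation and not the authors' counting. Shown are JUNB, the gene with the largest rise, EGR1, which carries 2 serum response elements, and JUN, which had the most counts of the JUN genes in 1CT. Capitals mark matches, on either strand, to the motifs listed after them.
JUNB: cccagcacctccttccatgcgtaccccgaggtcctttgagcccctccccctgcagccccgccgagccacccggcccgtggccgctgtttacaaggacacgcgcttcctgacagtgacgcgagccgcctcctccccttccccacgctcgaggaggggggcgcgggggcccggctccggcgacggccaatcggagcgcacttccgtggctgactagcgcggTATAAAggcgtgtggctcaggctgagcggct
EGR1: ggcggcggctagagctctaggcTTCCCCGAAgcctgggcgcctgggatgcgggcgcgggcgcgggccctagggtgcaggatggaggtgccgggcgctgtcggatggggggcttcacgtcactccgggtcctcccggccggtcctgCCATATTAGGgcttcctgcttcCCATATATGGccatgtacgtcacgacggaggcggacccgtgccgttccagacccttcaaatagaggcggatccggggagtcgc
JUN: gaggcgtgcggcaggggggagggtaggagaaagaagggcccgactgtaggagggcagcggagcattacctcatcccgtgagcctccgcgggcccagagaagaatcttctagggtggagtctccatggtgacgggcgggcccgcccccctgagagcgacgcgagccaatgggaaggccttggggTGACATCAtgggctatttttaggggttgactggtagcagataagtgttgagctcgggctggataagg
The JUNB window lies at chr19:12791236-12791485 on the plus strand, the EGR1 window at chr5:138465229-138465478 on the plus strand and the JUN window at chr1:58784048-58784297 on the minus strand. The motifs searched were the cAMP response element TGACGTCA, its variant TGACATCA, the AP-1 element TGANTCA, the EGR element GCGGGGGCG, the TCF/LEF element CTTTGAT, the STAT element TTCNNNGAA, the TATA box TATAAA and the serum response element (CArG box). JUNB had a TATA box that starts 31 bases before the annotated start, a motif that 11.1% of 27305 promoters of this length held, and it had no match to the other 7 motifs. EGR1 had serum response elements starting 105 and 83 bases before its start, which 1.14% of promoters held, and a STAT element starting 228 bases before it, which 6.78% held. JUN and ATF3 had the variant TGACATCA, 67 and 123 bases before the start, which 2.45% of promoters held. JUND had the cAMP response element 200 bases before its start (1.77% of promoters), and FOS and FOSB had a TATA box only within these 250 bases. Sequence farther upstream and other annotated starts of a gene were not searched. None of the 9 windows held the AP-1 element in the form TGANTCA, which 6.60% of promoters held, the EGR element (4.68%) or the TCF/LEF element (2.28%). The variant TGACATCA in JUN and ATF3 was counted apart from TGANTCA. Other forms of the AP-1 element were not searched, so the windows may hold AP-1 sites of another form. A match is a string of letters and not a bound site, and these data do not measure binding.

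The JUN genes moved in different directions (the plot of CPM by library). JUNB was at 29.7, 31.3 and 20.8 CPM in 1CT and at 222, 208 and 249 CPM in 1CT-A. Every 1CT-A library was far above every 1CT library, and 1CT replicate 3 was the lowest of all. The mean rose from 27.3 ± 5.65 CPM to 226 ± 20.9 CPM (SD, n = 3 each), which is 8.30-fold, and the edgeR log2 fold change was 3.01 (SE 0.13). Of 12514 genes tested, 36 (0.288%), JUNB included, rose at least as far, which is a description since JUNB was chosen for its rise. By size of change in either direction, JUNB ranked 298 among the tested genes, since falls were larger than rises. Without 1CT replicate 3 the log2 fold change was 2.87. In bulk RNA, more cells with JUNB mRNA and more of it per cell cannot be told apart.

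JUN, the gene of c-Jun, was at 288, 280.4 and 292 CPM in 1CT and at 167, 181 and 181 CPM in 1CT-A. The lines did not overlap, and all 1CT-A libraries were lower. The mean was 287 ± 6.04 CPM in 1CT and 176 ± 8.06 CPM in 1CT-A (SD, n = 3 each), 1.63-fold lower, with a log2 fold change of -0.74 (SE 0.07). JUND, the JUN gene that is usually expressed steadily rather than induced, was at 58.7, 61.8 and 63.6 CPM in 1CT and at 83.3, 88.4 and 90.9 CPM in 1CT-A. It was higher in every 1CT-A library, 1.43-fold in the mean, with a log2 fold change of 0.47 (SE 0.08).

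**Figure D1:**
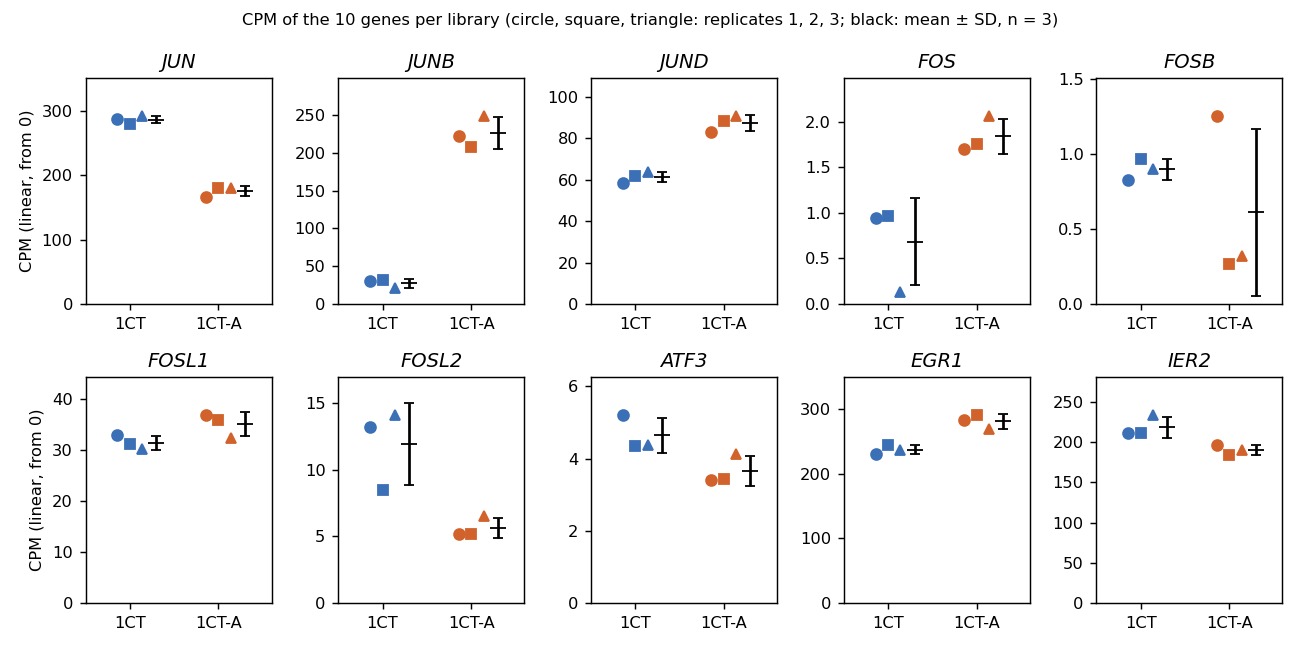
CPM (counts scaled to a common library total, linear axes from 0) of the 10 genes in 3 1CT and 3 1CT-A libraries, each point 1 library and the black bar the mean ± SD. JUNB is at 20.8 to 31.3 CPM in 1CT against 208 to 249 CPM in 1CT-A, JUN falls from 280.4 to 292 CPM to 167 to 181 CPM, and the libraries of FOSB and FOSL1 overlap.

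The balance among the JUN genes was therefore different in the lines. The counts on JUN, JUNB and JUND together were 373 to 377 CPM in 1CT against 472 to 520.3 CPM in 1CT-A. JUNB made up 7.90% of them in 1CT replicate 1 (95% Wilson interval 7.01% to 8.89%), 8.37% in replicate 2 (7.45% to 9.40%) and 5.52% in replicate 3 (4.75% to 6.41%). In 1CT-A it made up 47.1% in replicate 1 (45.7% to 48.4%), 43.5% in replicate 2 (42.2% to 44.9%) and 47.8% in replicate 3 (46.6% to 49.1%). The intervals cover counting error only, since reads without molecular identifiers are not independent molecules. On average JUNB went from 7.26% ± 1.53 (SD, n = 3) to 46.2% ± 2.29 (SD, n = 3), and JUN from 76.4% ± 1.27 (SD, n = 3) to 36.0% ± 1.71 (SD, n = 3). The share of JUND moved least, without overlap between the lines, at 16.3% ± 0.657 (SD, n = 3) and 17.9% ± 0.578 (SD, n = 3). The libraries are of the QuantSeq type, in which reads come from the 3′ end of a transcript, so counts were not divided by length. A share is compared here between libraries and not as a measure of which protein prevails.

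**Figure D2:**
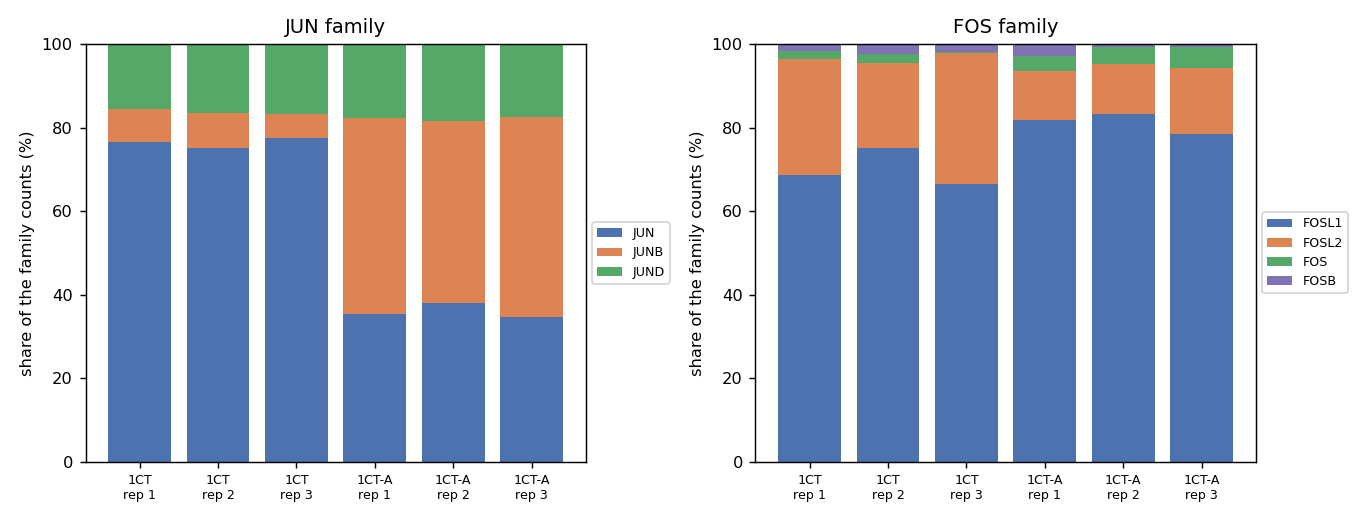
Share (%) of the counts of the JUN family (left: JUN, JUNB, JUND) and of the FOS family (right: FOSL1, FOSL2, FOS, FOSB) on each gene, 1 stacked bar per library, replicates 1 to 3 of each line. JUNB fills 5.52% to 8.37% of the JUN bars in 1CT and 43.5% to 47.8% in 1CT-A, and FOSL2 fills 20.3% to 31.2% of the FOS bars in 1CT and 11.5% to 15.7% in 1CT-A.

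The FOS genes provide the partners of the JUN proteins, and most of their counts lay on FOSL1, the gene of Fra-1. FOSL1 was at 33.0, 31.2 and 30.2 CPM in 1CT and at 36.9, 36.0 and 32.5 CPM in 1CT-A. The lines overlapped, because 1CT-A replicate 3 lay under 1CT replicate 1, and the log2 fold change was 0.12 (SE 0.09), or 0.18 without 1CT-A replicate 3. FOSL2, the gene of Fra-2, was at 13.3, 8.45 and 14.1 CPM in 1CT and at 5.20, 5.18 and 6.51 CPM in 1CT-A. All 1CT-A libraries were lower, although 1CT replicate 2 came closer to them than the other two. The mean was 2.12-fold lower, with a log2 fold change of -1.12 (SE 0.20).

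FOS, the gene of c-Fos, was near the limit of what these libraries can show. It had 8, 8 and 1 counts in 1CT and 19, 20 and 26 counts in 1CT-A, or 0.680 ± 0.478 CPM (SD, n = 3) and 1.84 ± 0.195 CPM (SD, n = 3). No 1CT library reached the 1.02 CPM at which the filter on low counts keeps a gene, so FOS entered the fit through 1CT-A alone and its log2 fold change of 1.36 (SE 0.45) is conditional on that. Without 1CT replicate 3, which had the single count, it was 0.92. FOSB had 7, 8 and 7 counts in 1CT and 14, 3 and 4 counts in 1CT-A, overlapped between the lines, and was the 1 gene of the 10 that the filter removed.

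The counts on the FOS genes together did not separate the lines, with 41.5 to 48.0 CPM in 1CT against 41.3 to 45.1 CPM in 1CT-A. Within that sum FOSL1 went from 70.1% ± 4.38 (SD, n = 3) to 81.2% ± 2.48 (SD, n = 3) and FOSL2 from 26.4% ± 5.51 (SD, n = 3) to 13.1% ± 2.31 (SD, n = 3). FOS stayed under 5% and FOSB under 3% of the family counts in every library.

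EGR1, a zinc finger factor and not a member of AP-1 itself, was at 230.2, 244 and 237 CPM in 1CT and at 283, 291 and 268 CPM in 1CT-A. The lines did not overlap, but the step was small, 1.18-fold in the mean, with a log2 fold change of 0.21 (SE 0.07). IER2, an immediate early gene of the nucleus, was at 212, 211 and 234 CPM in 1CT and at 197, 184 and 191 CPM in 1CT-A. All 1CT-A libraries were lower, with a log2 fold change of -0.24 (SE 0.07). ATF3, a stress induced factor that pairs with JUN proteins, was at 5.21, 4.35 and 4.37 CPM in 1CT and at 3.41, 3.42 and 4.13 CPM in 1CT-A. It did not overlap either, yet the log2 fold change of -0.38 had an SE of 0.21, with 34 to 52 counts per library behind it.

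**Figure D3:**
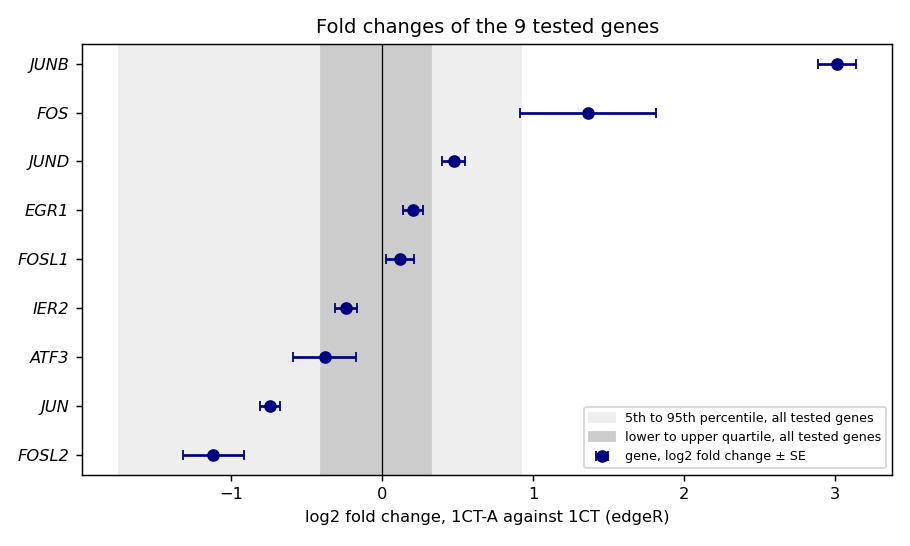
Change in 1CT-A from 1CT on the log2 scale (points, edgeR) with its SE (bars) for the 9 tested genes, over the range that holds 50% (dark grey) and 90% (light grey) of all 12514 tested genes. JUNB at 3.01 and FOS at 1.36 lie above the light band, which runs from -1.74 to 0.92, and JUN, FOSL2, ATF3 and IER2 lie below 0.

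In all, 4 genes (JUNB, JUND, FOS and EGR1) were higher and 4 (JUN, FOSL2, ATF3 and IER2) lower in every 1CT-A library than in any 1CT library, and 2 (FOSB and FOSL1) overlapped. Of all tested genes, 59.7% did not overlap, 31.8% being higher and 27.9% lower. The quasi-likelihood test of edgeR called 7 of the 9 tested genes at an adjusted p under 0.05, 4 higher and 3 lower, against 51.0% of all tested genes (25.0% higher and 26.0% lower). Since the genes were chosen with these values known, nothing is read from these counts. The call of FOS, which entered the fit through 1CT-A alone, was lost in DESeq2 and without 1CT replicate 3 or 1CT-A replicate 3. That of EGR1 was lost without 1CT replicate 1, 1CT-A replicate 1 or 1CT-A replicate 2, and that of IER2 without 1CT-A replicate 2 or 1CT-A replicate 3.

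The spread between replicates differed from gene to gene. JUN varied by 2.11% of its mean in 1CT (coefficient of variation, n = 3) where counting alone gives 2.07%, and EGR1 by 2.81% where counting gives 2.27%. In 1CT-A both varied more than that, JUN by 4.58% against 2.20% from counting and EGR1 by 4.03% against 1.75%, as did IER2 in 1CT, by 5.96% against 2.37%. JUNB varied by 20.7% in 1CT and 9.23% in 1CT-A, against 6.68% and 1.94% from counting. FOSL2 in 1CT also varied more than counting gives, 25.6% against 10.1%. JUND and FOSL1 stayed within 4.02% to 6.71% in both lines, against 3.12% to 6.23% from counting.

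Genes around JUNB on chromosome 19 were compared because a change shared by a segment would show in them. RefSeq lists 43 other genes with a start within 250 kb of that of JUNB, of which 27 were in the files and 20 were tested. Of these, 2 passed the test as higher and 4 as lower (51.0% of all genes passed), with a median log2 fold change of -0.04 against -0.01 over all genes. RNASEH2A, a subunit gene of ribonuclease H2, rose by 0.49 on the log2 scale (SE 0.10, edgeR adjusted p = 0.00106). DNASE2 fell by 0.71 (SE 0.10, edgeR adjusted p = 6.7e-05), ZNF791 fell by 0.51 (SE 0.12, edgeR adjusted p = 0.00381) and the peroxiredoxin gene PRDX2 fell by 0.48 (SE 0.13, edgeR adjusted p = 0.00609). HOOK2, which overlaps JUNB in RefSeq, was at 5.92, 6.88 and 8.09 CPM in 1CT and at 3.50, 4.83 and 2.62 CPM in 1CT-A, and fell by 0.97 on the log2 scale (SE 0.24, edgeR adjusted p = 0.00443). The use of strand in counting is not given in the sources used here, so reads of HOOK2 and JUNB where they overlap cannot be told apart.

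**Figure D4:**
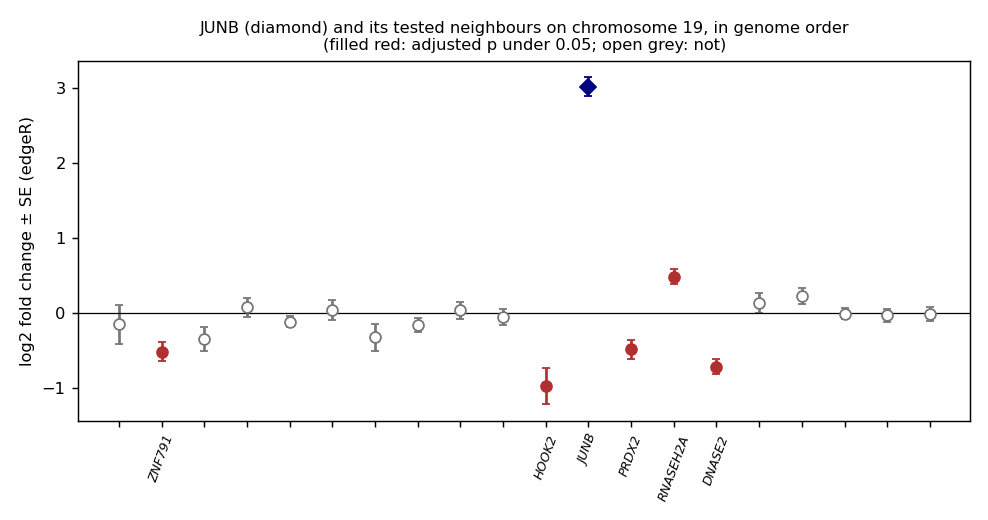
Change in 1CT-A from 1CT on the log2 scale with its SE (edgeR) for JUNB (diamond) and all but 1 of its 20 tested neighbours in their order on chromosome 19, with the names of those described in the text. JUNB stands at 3.01, and the neighbours shown lie between -0.97 (HOOK2) and 0.49 (RNASEH2A).

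Among 14 other bZIP genes whose proteins can pair with JUN or FOS proteins or bind related sites, 9 were tested, and 4 passed as higher and 2 as lower, beside 25.0% and 26.0% of all tested genes, with a median log2 fold change of 0.43 against -0.01. This list and the gene lists below were chosen with earlier results of these data known. Their counts, medians and p values are therefore a description. The CRE binding factor gene CREB5 was at 8.76, 9.90 and 6.42 CPM in 1CT and at 16.6, 17.5 and 17.7 CPM in 1CT-A, a rise of 1.00 on the log2 scale (SE 0.15, edgeR adjusted p = 1.2e-04). The small MAF genes, whose proteins lack an activation domain, did not share a direction. MAFG rose by 0.63 (SE 0.12, edgeR adjusted p = 7.3e-04), MAFK fell by 1.29 (SE 0.17, edgeR adjusted p = 4.3e-05) and MAFF fell by 0.54 (SE 0.14, edgeR adjusted p = 0.00649). BATF2, at 1.45 to 2.05 CPM in 1CT against 2.46 to 3.81 CPM in 1CT-A, also passed as higher (log2 fold change 0.88, SE 0.30, edgeR adjusted p = 0.0245), a call lost in DESeq2 and without any single library other than 1CT replicate 3 or 1CT-A replicate 2. JDP2, the gene of a repressor that pairs with JUN, rose by 0.21 (SE 0.08, edgeR adjusted p = 0.0468), a call lost in DESeq2, with the replicate block (edgeR adjusted p = 0.0722) and without each single library other than 1CT replicate 3. BATF, MAF, MAFA and NRL were among those too low to be tested, with at most 9 counts in a library.

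Of 29 other immediate early genes, 23 were tested, and 7 passed as higher and 13 as lower, where 51.0% of all tested genes passed (25.0% higher and 26.0% lower), with a median log2 fold change of -0.29 against -0.01 over all genes. Of the 13, KLF4 was at 2.72, 2.05 and 2.05 CPM in 1CT and at 0.896, 0.878 and 0.714 CPM in 1CT-A. No 1CT-A library reached the 1.02 CPM of the filter for KLF4. It was tested through its 1CT levels alone, and its call is conditional on that. KLF2, a zinc finger factor gene at 15.1 ± 2.40 CPM in 1CT and 3.64 ± 0.905 CPM in 1CT-A (SD, n = 3 each), fell by 2.09 on the log2 scale (SE 0.20, edgeR adjusted p = 1.9e-06). CTGF (CCN2), a matrix protein gene, fell by 1.68 (SE 0.09, edgeR adjusted p = 1.5e-08), the kinase gene SGK1 fell by 1.26 (SE 0.16, edgeR adjusted p = 3.0e-05), and DUSP1, whose protein switches off JNK and p38, fell by 0.94 (SE 0.12, edgeR adjusted p = 2.3e-05). MYC rose by 1.29 (SE 0.19, edgeR adjusted p = 1.2e-04). SRF, the factor that binds serum response elements, rose from 151 ± 18.4 CPM to 237 ± 12.4 CPM (SD, n = 3 each), by 0.61 (SE 0.09, edgeR adjusted p = 9.8e-05). ZFP36L2 rose by 0.54 (SE 0.09, edgeR adjusted p = 3.3e-04). ZFP36, the gene of a protein that speeds the decay of AU rich mRNAs, was at 13.3, 8.45 and 2.70 CPM in 1CT and at 14.4, 19.9 and 17.4 CPM in 1CT-A, a log2 fold change of 1.03 (SE 0.32, edgeR adjusted p = 0.0162). That value was 0.64 without 1CT replicate 3 and 1.57 without 1CT replicate 1, and the call was lost in DESeq2 and without 1CT-A replicate 2. EGR2, EGR3, EGR4, NR4A2, NR4A3 and ARC were too low to be tested. None of the 23 reached the JUNB rise of 3.01, MYC coming nearest. JUNB was chosen for its rise, and 0.288% of all tested genes rose at least as far, so nothing is read from this.

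Of 24 genes upstream of AP-1, all were tested, and 4 passed as higher and 3 as lower, fewer than the 51.0% of all tested genes, with a median log2 fold change of 0.14. The genes of the ternary complex factors, which recruit ERK signals to serum response elements together with SRF, all rose. ELK4 rose by 0.57 (SE 0.12, edgeR adjusted p = 0.00154), ELK1 by 0.37 (SE 0.08, edgeR adjusted p = 0.00161) and ELK3 by 0.26 (SE 0.08, edgeR adjusted p = 0.0152), the last no longer passing without 1CT-A replicate 2. RFWD2 (COP1), a ubiquitin ligase gene whose protein marks c-Jun for breakdown, rose by 0.35 (SE 0.11, edgeR adjusted p = 0.0138), a call lost without 1CT-A replicate 3. Of the kinase genes, MAPK3 (ERK1) fell by 0.78 (SE 0.09, edgeR adjusted p = 1.0e-05), MAP2K2 (MEK2) fell by 0.55 (SE 0.08, edgeR adjusted p = 9.9e-05) and MAPK11 (a p38) fell by 0.63 (SE 0.15, edgeR adjusted p = 0.00399). The JNK genes MAPK8, MAPK9 and MAPK10 had log2 fold changes of 0.12, 0.16 and 0.36 with SEs of 0.13, 0.18 and 0.36 and did not pass, although MAPK8 passed without 1CT replicate 2 (log2 fold change 0.32) and MAPK9 turned to -0.056 without 1CT replicate 3.

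Of 28 genes known as AP-1 targets in various cells, 21 were tested, and 6 passed as higher and 10 as lower, beside 25.0% and 26.0% of all tested genes. Of the 6, EREG and LAMA3 did not reach the level of the filter in all 1CT libraries and were tested through their 1CT-A levels. The median absolute log2 fold change of the 21 was 0.91 against 0.36 over all genes, and their median was -0.17. EREG and LAMA3 are among the 21, and the list was chosen with earlier results of these data known, so these values are a description. CCND1, the cyclin D1 gene that c-Jun can activate and JunB can repress, was at 1258 ± 145 CPM in 1CT and 333 ± 16.1 CPM in 1CT-A (SD, n = 3 each), and fell by 1.96 on the log2 scale (SE 0.09, edgeR adjusted p = 2.6e-09). CCNA2, the cyclin A2 gene, rose by 1.22 (SE 0.09, edgeR adjusted p = 3.4e-07), while CDKN2A, the gene of p16, which JunB is known to activate, was at 169 ± 11.9 and 183 ± 8.60 CPM (SD, n = 3) with a log2 fold change of 0.08 (SE 0.07, edgeR adjusted p = 0.403).

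The EGF receptor ligands in that list split. HBEGF was at 12.1, 12.6 and 12.8 CPM in 1CT and at 1.70, 3.07 and 2.22 CPM in 1CT-A, and fell by 2.45 on the log2 scale (SE 0.20, edgeR adjusted p = 6.6e-07), and AREG fell by 2.16 (SE 0.24, edgeR adjusted p = 8.2e-06). EREG was at 0.355, 1.21 and 0.385 CPM in 1CT, close to the limit of 3 counts, and at 9.23, 11.7 and 12.5 CPM in 1CT-A, a log2 fold change of 4.03 (SE 0.32), or 4.83 without 1CT replicate 2. Like FOS, it entered the fit only with the help of the 1CT-A libraries, where it is high, so no p value is given for it. TIMP1, an inhibitor of matrix metalloproteinases, fell by 1.48 (SE 0.09, edgeR adjusted p = 2.6e-08). PLAU, the urokinase gene, rose by 1.66 (SE 0.28, edgeR adjusted p = 3.0e-04) and VEGFA by 0.89 (SE 0.16, edgeR adjusted p = 4.6e-04). The collagenase gene MMP1 had 3, 5 and 0 counts in 1CT and 13, 8 and 21 in 1CT-A, and MMP9, MMP10 and MMP13 had at most 2 counts in a library, so these classical targets were too low to be tested.

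**Figure D5:**
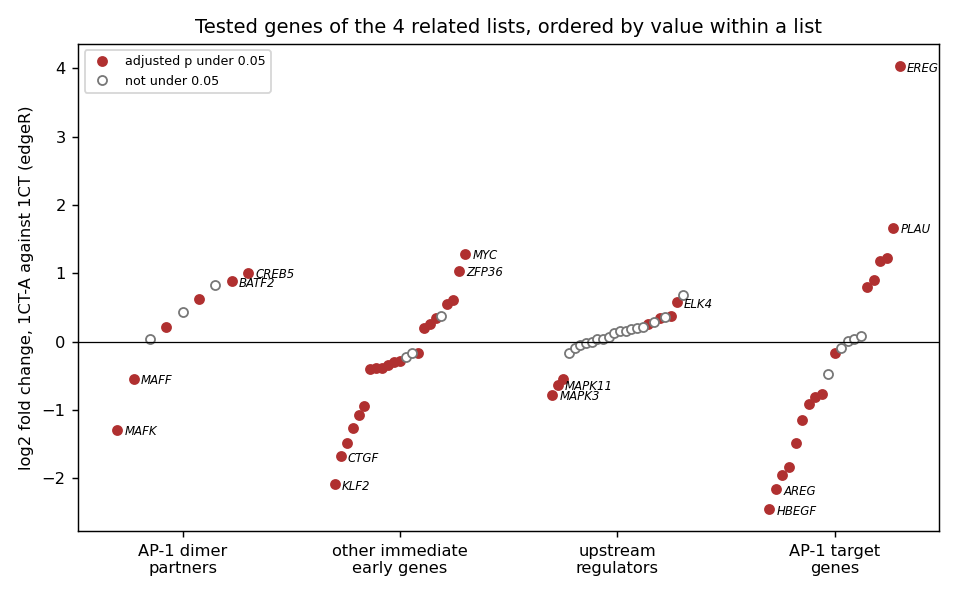
Change in 1CT-A from 1CT on the log2 scale (edgeR) of the tested genes of 4 lists related to AP-1, each point 1 gene, filled where the adjusted p is under 0.05 and open where it is not. The immediate early genes and the AP-1 targets reach to both sides, from KLF2 at -2.09 to MYC at 1.29 and from HBEGF at -2.45 to EREG at 4.03.

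The patterns most like those of 3 of the genes were looked for by the Euclidean distance of log2(CPM + 0.5), centred on each gene, over the 6 libraries, among 8224 genes whose mean reached 10 CPM. The 5 nearest to JUNB were FIBIN (distance 0.34), PKDCC (0.37), AKR1C2 (0.47), CHN1 (0.68) and SCD (0.73), with log2 fold changes from 2.51 to 3.14. AKR1C2 is uncertain, because reads can be divided between it and its near-identical paralogs. Nearest to FOS were NUP37 (0.32), TMEM64 (0.36), TWSG1 (0.38), F3 (0.38) and TFB2M (0.38), all of them lowest in 1CT replicate 3 as FOS was. FOS itself was far under 10 CPM, and its value in that library rests on 1 count, so its pattern is uncertain. Nearest to FOSL1 were ERBB2IP, AP4B1, SWAP70, KIAA1429 and TMEM19, within 0.09 and with log2 fold changes from 0.07 to 0.16. The distances are a description over 6 libraries in which the cell line sets most of the pattern.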

How the data were processed

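RNA of 3 1CT and 3 1CT-A libraries was measured by QuantSeq 3′ sequencing from 500 ng of total RNA, per the labels. The paper's methods name a different extraction kit and a cDNA microarray step at a commercial service. Each deposited file holds 1 library as counts, whole numbers of reads per gene symbol that the authors did not normalize. The submitters' processing notes name Bowtie2, edgeR and hg19. The counting tool, the annotation and the use of strand are not given in the sources used here. Each file had 25737 entries for 24462 symbols, and counts of the 286 repeated symbols were added together. Names in the lists and their older forms were matched through GENCODE and RefSeq tables.

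Members and lists were chosen with earlier results of these data known. CPM are counts scaled to a file total of 1000000. Genes were tested with edgeR 4.0.16 in R 4.3.3 (TMM, filterByExpr with a minimum count of 10, quasi-likelihood test, Benjamini-Hochberg adjustment over 12514 genes), and the fit was tested on simulated data. The SE of a log2 fold change was derived from that test, as its absolute value divided by the square root of the F statistic. Genes named are the 10 members, APC, in each list up to 4 rises and 4 falls with an adjusted p under 0.05, at least 5 CPM and no overlap, the JUNB neighbours that passed, and the 5 nearest patterns, except genes that are not reported here. Genes outside this rule (BATF2, LAMA3, KLF4, the JNK genes, CDKN2A and the genes too low to be tested) were named after their values were seen. Alternatives were DESeq2 1.42.0, limma 3.58.1 (voom), other scalings, no filter, a threshold of 0.01, the replicate block and each library left out. Replicates of a line differed by more than counting noise (chi-square per degree of freedom 3.11 to 9.00), so none was a copy. 1CT replicate 3 stood apart, at 7.54 against replicate 1 and 9.00 against replicate 2. Replicates 1 and 2 of 1CT were at 3.80, and the 1CT-A pairs at 3.11 to 4.56. The lowest 1CT values of JUNB, FOS, ZFP36 and MAPK9 were all in 1CT replicate 3.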

Additional observations from a re-analysis of the deposited data

How the results depend on the processing

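The replicate numbers of the labels gave no sign of pairing the libraries. Departures of libraries with the same number from their line means correlated by -0.15, 0.21 and -0.13 over 8223 genes. Those of libraries with different numbers correlated by -0.28 to 0.33. With so few libraries these values cannot show whether the libraries were paired. A fit with the number as a replicate block gave JUNB a log2 fold change of 3.02 and APC one of -0.58. The block ended the call of JDP2 and of no other gene named with a log2 fold change. It gave 6091 called genes in place of 6388, 6000 of them shared. At an adjusted p under 0.01 the number of called AP-1 genes was 4 of 9 (2 higher and 2 lower) in place of 7, and leaving out single libraries gave 5 to 7. Nothing is read from these counts of AP-1 genes, since the genes were chosen with their values known. JUNB stayed between 2.87 and 3.12 and JUN between -0.76 and -0.70 over all their alternatives. Of the tested genes named and followed over the alternatives, MAPK9 turned direction in 1 alternative, without 1CT replicate 3. Its log2 fold change lay between -0.056 and 0.39 with single libraries left out, and the cause was not tested. The difference in the JUNB share of JUN family counts was 38.9 percentage points, and 38.0 to 40.2 with single libraries left out. Leaving out single libraries gave 5364 to 6551 called genes among all tested. The alternatives for single genes other than APC and the AP-1 genes were added after their values were seen. FOSB had no value in the filtered fit and so none to compare. The depth limits FOS, FOSB, EREG in 1CT and the metalloproteinase genes, with few counts per library, and the 1CT-A libraries were deeper throughout.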
